A study of Homo sapiens with 4 samples.

Results

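The zinc finger genes of chromosome 19 form a dense block of related genes that encode proteins built on repeated C2H2 zinc fingers, each finger a short loop held by a zinc ion that reads a few bases of DNA. Members were the protein-coding genes on chromosome 19 whose current NCBI symbol is ZNF followed by a number and at most 1 letter. Of the 23459 genes listed in each library, 243 met this rule, and 203 of them had a CPM (counts scaled to the total of the library) above 1 in at least 2 libraries, the filter that left 12559 genes in all. The rule itself used no expression value, but it was chosen with earlier results of these data known. The 40 members removed by the filter were expressed at very low levels: 12 had no count in any library, and the highest total over the 4 libraries among the other 28 was 33 counts. The counts below therefore describe the 203 members that passed the filter.

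RPE-1 is a non-cancerous human cell line of retinal pigment epithelial origin, made immortal with hTERT, the catalytic subunit of telomerase. All cells were wild type, had been held for 48 h in medium with 0.1% fetal bovine serum, which arrests their growth, and were then exposed to 200 μM merbarone, a catalytic inhibitor of type II DNA topoisomerases. RNA-Seq of polyadenylated RNA gave 2 libraries after 4 h of merbarone and 2 after 8 h, described as biological replicates, so that every comparison is 8 h against 4 h. Untreated cells were not analysed here, so time with the drug and time in low serum cannot be told apart.

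Most zinc finger proteins of chromosome 19 carry a KRAB domain in front of their fingers. This domain recruits the co-repressor TRIM28, which in turn brings the histone methyltransferase SETDB1, HP1 proteins and the NuRD remodelling complex to DNA, and many KRAB zinc finger proteins bind and silence transposable elements. The genes arose by repeated tandem duplication and lie in dense clusters along the chromosome, where they are themselves packaged in compact chromatin that carries the same SETDB1-dependent mark at their 3' ends. Their transcripts are typically scarce.

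Depth ranged from 8064450 to 10324697 counts per library, and the replicate variation estimated by edgeR (the biological coefficient of variation) was 6.52%. With 2 libraries at each time, an exact two-sided permutation test of a single gene cannot give a p below 0.333, so the adjusted p-values below come from edgeR's quasi-likelihood test with Benjamini-Hochberg adjustment over all 12559 genes. The labelled cell type was checked on raw counts. MITF and OTX2, transcription factors of the pigment epithelium, had 669 to 882 and 132 to 193 counts, whereas the visual cycle gene RPE65 had 2 to 7 and TTR 0 to 1, so that the markers of differentiated pigment epithelium were close to absent. KRT8, VIM and FN1 were abundant, the epithelial genes CDH1 and EPCAM had at most 1 count in any library, and the photoreceptor gene CRX had 0 in every library.

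The members were built alike in ways that the rule did not use. The median retained member had 12 zinc fingers, counted in the translated coding sequence, with a range from 1 in ZNF414 and ZNF428 to 31 in ZNF91. A median of 87.5% of the coding sequence lay in the last exon, which was 3430 bases long at the median, and the median number of exons was 4. A KRAB A-box, scored as at least 15 identities to a consensus of 41 residues, was found in the transcripts of 207 of the 243 listed members. None of the other 36 exceeded 9 identities, but ZNF473 was counted as a carrier with 15, the threshold itself. Transcripts of the retained members had a median GC content of 42.4%, against 48.0% over all 12559 genes. The reads were 75 bases long, and windows of that length were searched on chromosome 19 by exact match only. Despite the repeated fingers the median member had 100% of its windows found once, although 18 retained members were below 95% and the lowest was at 73.3%.

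The members were weakly expressed. Their median TMM-normalized count (scaled to library size and composition by TMM) was 63.8, against 291 for all 12559 genes. All listed members together held 0.241% and 0.23% of the counts at 4 h against 0.225% and 0.224% at 8 h. The summed TMM CPM of the retained members was 2319.2 and 2199.7 at 4 h against 2309.1 and 2328.5 at 8 h, so that 1 of the 8 h values lay between those of 4 h and the other just above them. Their median log2-CPM was 2.94 and 2.81 at 4 h against 2.79 and 2.77 at 8 h. The median member was lower in both libraries of 8 h.

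Per kilobase of transcript, ZNF358 had the highest level at a mean of 48.9 TMM CPM, followed by ZNF146 at 39.5 and ZNF580 at 36.1. All 3 lack a KRAB domain. ZNF358 had 708.9 and 822.3 normalized counts at 4 h against 971.6 and 1187 at 8 h, and rose by a log2FC (log2 fold change, 8 h against 4 h) of 0.49 ± 0.10 (SE, adjusted p = 0.000829, edgeR). Both 8 h libraries lay above both of 4 h, but the difference fell to 0.19 (adjusted p = 0.0565) when each library was corrected for its trend with transcript GC content. ZNF146, also called OZF, which consists of little more than its fingers, had 1346 and 1066 normalized counts at 4 h against 1395 and 1264 at 8 h. These times overlapped, and its log2FC of 0.14 ± 0.10 did not pass the test (adjusted p = 0.273). ZNF580, a short gene with 3 fingers whose exons overlap those of CCDC106 and ZNF581 on the same strand, had 413.7 and 370.8 normalized counts at 4 h against 335.5 and 479.6 at 8 h. The 8 h replicates of ZNF580 lay on both sides of the 4 h values, and the log2FC was 0.05 ± 0.14 (adjusted p = 0.819). It became -0.27 with the GC correction (adjusted p = 0.0339), so no direction is given for this gene. ZNF428 (34.2 TMM CPM per kilobase) and ZNF581 (33.0) came next, and the following member, ZNF875, was at 14.4.

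Between 4 h and 8 h a minority of members changed, and those that did went both ways. At an adjusted p below 0.05, 18 of the 203 members were higher at 8 h, which is 8.87% against 19.9% of all genes tested, and 30 were lower, which is 14.8% against 18.8%. The remaining 155 members did not pass the test. With the added requirement of an absolute log2FC above 1, 5 members were higher (1.45% of all genes were) and 13 lower (3.88% of all genes). Values of both replicates at 8 h lay above both at 4 h in 48 members, or 23.6% (34.8% of all genes), and below in 73, or 36% (34.9% of all genes), so that the share without overlap was near the background on the lower side. The median log2FC was -0.08, with quartiles of -0.49 and 0.16, and 134 members had an absolute log2FC below 0.5.

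The calls of members rested on fewer reads than those of most genes. The median SE of their log2FC was 0.23, against 0.13 over all genes. Leaving out 1 library moved the counts by more than 1.5 times: 11 members were lower without replicate 1 of 4 h and 17 without replicate 2 of 4 h, and 11 were higher without the latter. The count of members past both thresholds on the lower side was 6 without replicate 1 of 4 h. The division between directions also depended on scaling. Corrected for each library's trend with mean log2-CPM, 27 members were higher and 15 lower, and the 18 and 15 called in the same direction before were all among them. With library size alone in place of TMM, which moved the median of all genes to -0.11, 16 were higher and 39 lower. The relative number of rises and falls among the members therefore has no direction that held under every scaling, while the 10 rises and 10 falls named below kept their direction in every fit made.

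**Figure D1:**
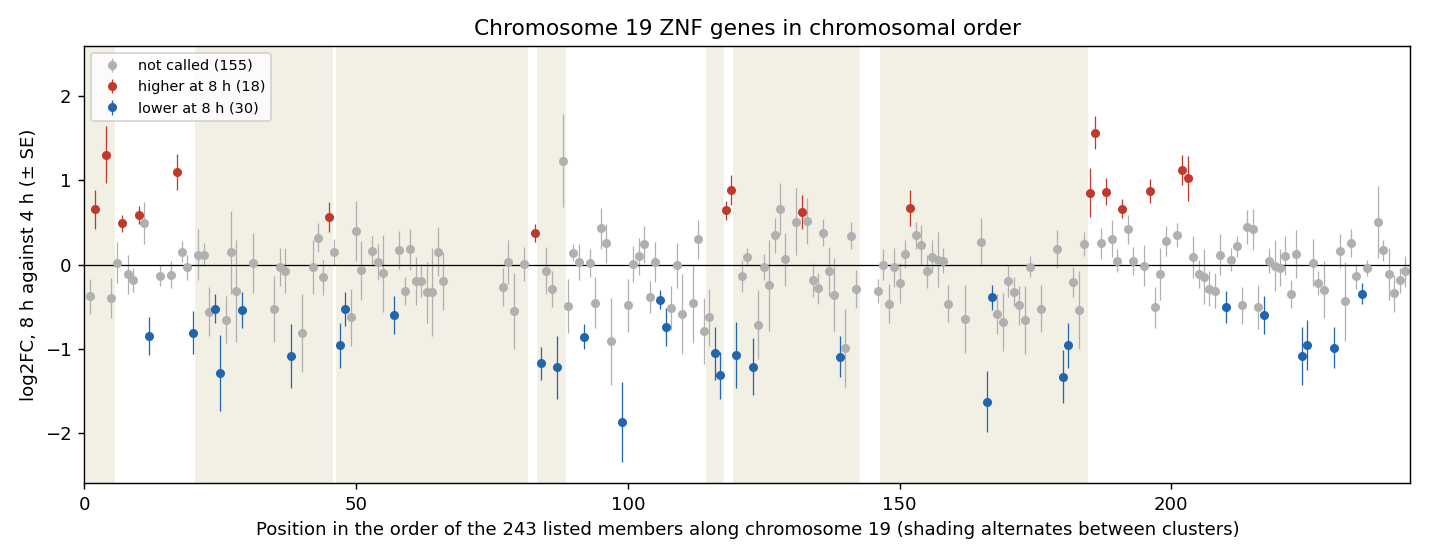
Each point is 1 of the 203 retained members, in its order among the 243 listed members along chromosome 19 (x axis), with its log2FC at 8 h against 4 h and SE (y axis). Red points were called higher (18), blue points lower (30) and grey points neither (155) at an adjusted p below 0.05 (edgeR), and background shading alternates between clusters of members less than 1 Mb apart. Rises and falls were spread over many clusters. The last cluster at the right held 55 of the 203 members and 7 of the 18 rises, which is 12.7% of its members, against 19.9% of all genes.

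Because the members were weakly expressed, genes were compared within quintiles of mean log2-CPM over all retained genes. In the lowest quintile, which held 108 members, 2.78% were higher and 18.5% lower, against 6.44% and 14.6% of the other protein-coding genes of that quintile. Their median log2FC was -0.32, against -0.16, but it was -0.16 against -0.17 without replicate 2 of 8 h, so that this gap depended on that library. Medians by quintile or cluster were not computed without each other library. In the second quintile, with 69 members, 13% were higher and 8.7% lower, against 10.1% and 23.6%, and the median was 0.01 against -0.11. With TMM, members had more falls than rises in the lowest quintile and more rises than falls in the second. With library size alone, the second quintile had 8 members higher and 10 lower, so its order depended on scaling. The third quintile held 20 members, of which 15% were higher and 20% lower, against 17.4% and 21.6%. The 4 members of the next quintile were ZNF317, ZNF507, ZNF561 and ZNF8, and the first 2 rose, whereas the top quintile held ZNF358, which rose, and ZNF146, which did not pass the test. Weighted to the members' own quintiles, other protein-coding genes were higher in 9.52% and lower in 18.5%, next to 8.87% and 14.8% of members, and the mean of their quintile medians, weighted in the same way, was -0.13. These differences between members and other genes were not tested.

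**Figure D2:**
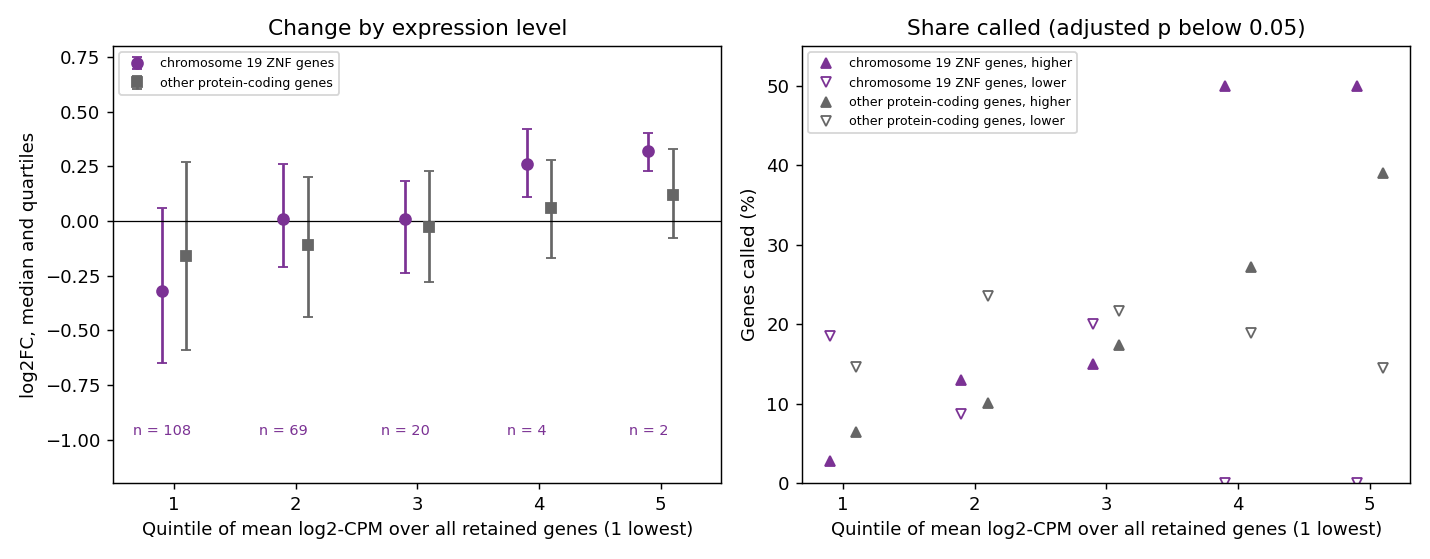
The left panel plots the median log2FC with its quartiles and the right panel the percent of genes called higher or lower, by quintile of mean log2-CPM (x axis, 1 lowest), for the members and for other protein-coding genes. Members per quintile numbered 108, 69, 20, 4 and 2, so the shares of 50% at the right stand for 2 of 4 and 1 of 2 members, and the member median of -0.32 in the lowest quintile, against -0.16 in other genes, was -0.16 against -0.17 without replicate 2 of 8 h.

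Among other genes, ZNF genes of other chromosomes were chosen by the same symbol pattern (259 listed, 223 retained). Of these, 36 were higher (16.1%, against 19.9% of all genes) and 35 lower (15.7%, against 18.8%), with a median log2FC of -0.03 and a median transcript GC content of 45%. The other protein-coding genes of chromosome 19 (1133 listed, 644 retained) had 189 higher (29.3%) and 68 lower (10.6%), a median of 0.16 and a GC content of 60.9%. The median of these neighbours was 0.05 with the GC correction and 0.08 without replicate 2 of 8 h, next to -0.07 and -0.06 for the members. After the correction for mean log2-CPM both medians were positive, at 0.16 for the neighbours and 0.05 for the members.

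Members with and without a KRAB domain showed different values. Of the 174 retained KRAB members, 9 were higher (5.17%, against 19.9% of all genes) and 24 lower (13.8%, against 18.8%), with a median log2FC of -0.12. Of the 29 without it, 9 were higher (31%) and 6 lower (20.7%), with a median of 0.14. These groups also differed in composition and level, with a median transcript GC content of 42.1% and a median normalized count of 60 for the KRAB members, against 62.1% and 140 for the others. After the GC correction the medians were -0.09 and 0.02, with 14 higher and 20 lower KRAB members and 8 higher and 7 lower others. After the correction for mean log2-CPM they were 0.00 and 0.30, and the balance among KRAB members turned to 17 higher and 13 lower, with 10 higher and 2 lower among the others. With library size alone they were -0.22 and 0.04, and without replicate 2 of 8 h -0.07 and 0.08. The median of the KRAB members was the lower of the pair in each of these settings, and their difference was not tested.

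Members without a KRAB domain differed among themselves by GC content. Of the 18 with a transcript GC content above 50%, a value chosen after the data were seen, 7 rose and 1 fell, and their median log2FC was 0.36. Of the 10 at or below 50% (1 more, ZNF714, had no value), 2 rose (ZNF121 and ZNF507) and 5 fell (ZNF260, ZNF345, ZNF83, ZNF491 and ZNF134), with a median of -0.45. The times overlapped in ZNF83 (adjusted p = 0.0497, edgeR). ZNF491 passed the CPM filter only through the 4 h libraries, and had 0.85 and 0.91 TMM CPM at 8 h. KRAB members above 50% GC numbered 10, of which 1 rose (ZNF317) and 1 fell (ZNF875), with a median of -0.11. The 163 KRAB members at or below 50% had 8 rises and 23 falls. Their median of -0.12 was above the -0.45 of the members without KRAB at that GC content. Beside these counts, 19.9% of all genes were higher and 18.8% lower. The other protein-coding genes of chromosome 19, with a median GC content of 60.9%, were higher in 29.3% and lower in 10.6%. ZNF579, ZNF865 and ZNF628, all GC-rich, were each higher in replicate 2 than in replicate 1 of 8 h, with values given below. The part of library GC content in these differences was not tested beyond the correction given above.

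**Figure D3:**
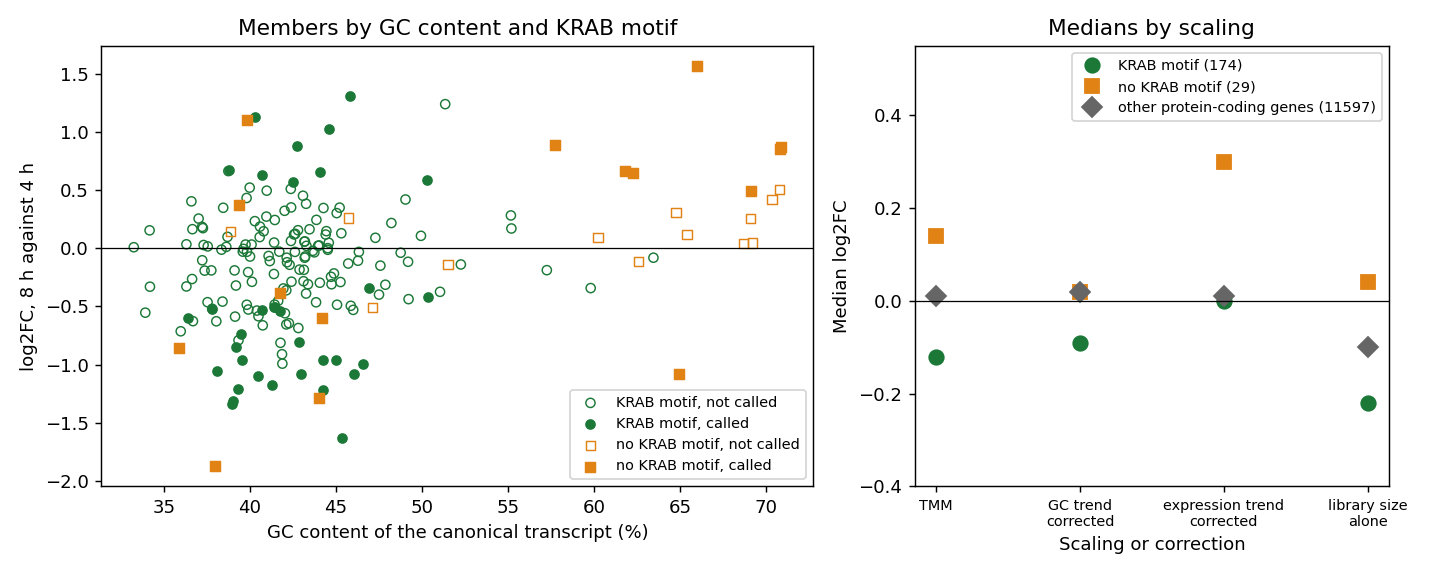
The left panel plots the log2FC of each retained member (y axis) against the GC content of its canonical transcript in percent (x axis), with KRAB members in green, others in orange and called members filled. The right panel gives the median log2FC of the 174 KRAB members, the 29 others and the 11597 other protein-coding genes under 4 scalings, where the KRAB median stays below that of the others, from -0.12 against 0.14 with TMM to -0.09 against 0.02 after GC correction.

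The 10 members with the largest rises among those called, without overlap between times and with a mean of at least 50 normalized counts at the higher time, were led by ZNF579. This gene, a GC-rich member with 8 fingers and no KRAB domain, lies at chr19:56088140-56092214 on the minus strand (hg19). It had 90.6 and 107 normalized counts at 4 h against 225 and 365.3 at 8 h, for a log2FC of 1.57 ± 0.20 (adjusted p = 4.84e-06, edgeR), or 2.96-fold. Both 8 h libraries were well above both of 4 h, and the rise was 1.19 without replicate 2 of 8 h and 1.33 with the GC correction. ZNF805, a KRAB member with 13 fingers at chr19:57752000-57774096, had 73.6 and 79.8 normalized counts at 4 h against 166.7 and 167.7 at 8 h, and rose by 1.12 ± 0.18 (adjusted p = 6.19e-05). Its replicates nearly coincided at 8 h.

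The promoters of ZNF579 and ZNF805 are shown because these members had the largest rises by this rule, and those of ZNF780A and ZNF302 because both fell by more than 1 on the log2 scale and had 1 window each. Each sequence runs from 250 bases before to 50 bases after a RefSeq transcription start on GRCh38.p14, in the direction of transcription, with matches to the motifs searched in capitals. The windows are chr19:55580799-55581098 (minus strand) for ZNF579, chr19:57240382-57240681 (plus strand) for ZNF805, chr19:40090894-40091193 (minus strand) for ZNF780A and chr19:34677428-34677727 (plus strand) for ZNF302.
ZNF579: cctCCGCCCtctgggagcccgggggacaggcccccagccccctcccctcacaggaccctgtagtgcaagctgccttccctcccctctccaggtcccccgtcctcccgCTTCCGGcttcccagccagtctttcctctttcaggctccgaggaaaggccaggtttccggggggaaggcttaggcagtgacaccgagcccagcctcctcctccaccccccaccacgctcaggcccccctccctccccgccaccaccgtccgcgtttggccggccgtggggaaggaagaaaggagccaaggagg
ZNF805: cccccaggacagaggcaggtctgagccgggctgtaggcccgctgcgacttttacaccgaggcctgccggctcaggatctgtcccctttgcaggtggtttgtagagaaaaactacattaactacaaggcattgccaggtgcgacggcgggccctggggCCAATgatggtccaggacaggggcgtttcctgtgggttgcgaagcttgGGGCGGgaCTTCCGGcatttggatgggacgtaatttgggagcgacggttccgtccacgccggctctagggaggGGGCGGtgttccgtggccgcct
ZNF780A: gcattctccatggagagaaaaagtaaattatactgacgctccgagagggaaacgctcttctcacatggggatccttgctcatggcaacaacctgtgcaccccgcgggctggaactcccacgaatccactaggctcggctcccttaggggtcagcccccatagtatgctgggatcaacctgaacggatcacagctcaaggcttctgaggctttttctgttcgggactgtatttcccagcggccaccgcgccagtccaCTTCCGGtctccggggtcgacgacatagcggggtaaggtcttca
ZNF302: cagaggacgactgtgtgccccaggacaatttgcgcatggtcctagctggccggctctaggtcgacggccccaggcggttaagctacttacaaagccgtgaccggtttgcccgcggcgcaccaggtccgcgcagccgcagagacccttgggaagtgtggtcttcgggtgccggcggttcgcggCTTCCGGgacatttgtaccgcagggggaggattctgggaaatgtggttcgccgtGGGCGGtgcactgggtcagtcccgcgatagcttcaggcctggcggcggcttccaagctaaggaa

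All 4 windows held the ETS core CCGGAAG, read here as CTTCCGG on the printed strand. The motif was frequent in the family as a whole. In RefSeq windows, found for 184 of the 203 retained members (228 windows, since a gene can have several starts), it occurred in 40.4%, against 12.8% of the 22199 windows of all protein-coding genes, counting both strands. The NF-Y motif CCAAT occurred in 49.6% of member windows and 34.7% of all, and the SP1 GC box GGGCGG in 61.8% and 56.3%. TATAAA was in 2.63% of member windows and 9.47% of all. The cAMP response element TGACGTCA was in 4.39% and 2.26%, the YY1 motif ATGGCGGC in 4.82% and 3.91%, and the E2F motif GGCGGGAA in 3.95% and 3.98%. Matches of GGGCGG and GGCGGGAA can overlap. ETS motifs were in 4 of 21 windows of members called higher (19%) and in 18 of 37 of members called lower (48.6%). The windows of ZNF579 and ZNF805 are thus among the few of rising members that held it. The ETS motif was also in 43% of the windows of KRAB members and 25.7% of those of the others. KRAB members made up 9 of the 18 rises and 24 of the 30 falls, so direction and class were not separated here. The GC box GGGCGG was in 85.7% of windows of members called higher and 62.2% of those called lower. These are matches of letters in a window and were not tested for binding.

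The other rises spanned KRAB and finger-only members. ZNF121, with 9 fingers and no KRAB domain, had 50.2 and 45.3 normalized counts at 4 h against 97.2 and 109.3 at 8 h, a rise of 1.11 ± 0.21 (adjusted p = 0.000442). ZNF460, a KRAB member, had 38.6 and 24.5 at 4 h against 66.5 and 62.1 at 8 h, a rise of 1.03 ± 0.27 (adjusted p = 0.00522). Both were higher at 8 h without overlap of the times, but ZNF460 lost its call without replicate 2 of 4 h (0.73, adjusted p = 0.112). ZNF667, a KRAB member known in rodents as Mipu1, had 128.3 and 143.2 at 4 h against 251.6 and 246 at 8 h, a rise of 0.87 ± 0.15 (adjusted p = 0.00011). Its exons overlap the antisense transcript ZNF667-AS1, and since the use of strand in counting is not given in the sources used here, reads of the pair cannot be told apart.

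ZNF526 and ZNF574, both without KRAB, are the only listed members of a small cluster at chr19:42572629-42732353 and both rose. Beside them, 19.9% of all genes and 29.3% of the other protein-coding genes of chromosome 19 were higher. ZNF526 had 102.3 and 87.9 normalized counts at 4 h against 161.6 and 192.6 at 8 h (log2FC 0.89 ± 0.18, adjusted p = 0.000539). ZNF574 had 259.3 and 263.8 at 4 h against 412.2 and 406.3 at 8 h (log2FC 0.65 ± 0.11, adjusted p = 0.000182). The replicates of ZNF574 differed little at either time, while those of ZNF526 differed more, and the exons of ZNF526 overlap those of GSK3A on the opposite strand. ZNF581, a short gene of 4 fingers near ZNF580, had 282.7 and 302.8 at 4 h against 466.4 and 462.2 at 8 h, a rise of 0.67 ± 0.11 (adjusted p = 9.82e-05).

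ZNF865 and ZNF628, with 20 and 16 fingers, are GC-rich members without KRAB, at 70.9% and 70.8% GC. ZNF865 had 160.6 and 145.1 normalized counts at 4 h against 235.2 and 325.5 at 8 h, a rise of 0.87 ± 0.16 (adjusted p = 0.000284) that was 0.51 with the GC correction and 0.62 without replicate 2 of 8 h. ZNF628 had 42.2 and 40.8 at 4 h against 49.1 and 104.4 at 8 h, a rise of 0.86 ± 0.29 (adjusted p = 0.027). The rise of ZNF628 came mostly from 1 library, since its log2FC was 0.24 without replicate 2 of 8 h (adjusted p = 0.577). It also lost its call without either replicate of 4 h (0.87 and 0.83) with the GC correction (0.49, adjusted p = 0.109), with Limma-Voom (0.74, adjusted p = 0.0635) and after thinning to the smallest library (0.72, adjusted p = 0.0688). ZNF615, a KRAB member with 19 fingers, had 61 and 64.4 at 4 h against 110.5 and 88.2 at 8 h (log2FC 0.67 ± 0.21, adjusted p = 0.0155), and its call was lost without replicate 1 of 4 h (0.62), replicate 2 of 4 h (0.70) or replicate 1 of 8 h (0.49).

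The falls by the same rule were led by ZNF701. This KRAB member, with 7 fingers, had 45.8 and 56.2 normalized counts at 4 h against 9.2 and 24.9 at 8 h, a log2FC of -1.63 ± 0.36 (adjusted p = 0.00134). The 8 h replicates lay below both of 4 h but differed from each other, so that the log2FC was -2.45 without replicate 2 and -1.03 without replicate 1 of 8 h. ZNF302 had 231.5 and 158.6 at 4 h against 84.9 and 88.2 at 8 h, a log2FC of -1.17 ± 0.20 (adjusted p = 0.000105). Its level at 4 h was above that of the other KRAB members among the named falls, and 92.9% of its 75-base windows were found once on the chromosome. ZNF780A, with 17 fingers, had 71.8 and 54.4 at 4 h against 24.5 and 26.1 at 8 h, a log2FC of -1.32 ± 0.28 (adjusted p = 0.000983), or 2.49-fold lower.

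ZNF780A lies in a cluster of 3 members at chr19:40490041-40596850 whose log2FC were all negative, with a median of -1.05. Of all 12559 genes, 6309 had a negative log2FC and 18.8% were called lower. Its neighbour ZNF780B, with 21 fingers, had 47.6 and 40.8 normalized counts at 4 h against 25.6 and 16.1 at 8 h and fell by 1.05 ± 0.32 (adjusted p = 0.0123). The third, ZNF546, had 30.5 and 33.5 at 4 h against 24.5 and 16.1 at 8 h, without overlap, but its log2FC of -0.63 ± 0.34 did not pass the test (adjusted p = 0.146). ZNF780A and ZNF780B are recent copies, with 93% identity over 1920 aligned coding bases, and are represented by 1 matching finger of 84 bases on the minus strand of hg19, at chr19:40581767-40581850 and chr19:40542184-40542267. The 5 bases that differ are in capitals.
ZNF780A: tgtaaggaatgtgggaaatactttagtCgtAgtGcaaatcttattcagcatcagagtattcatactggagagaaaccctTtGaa
ZNF780B: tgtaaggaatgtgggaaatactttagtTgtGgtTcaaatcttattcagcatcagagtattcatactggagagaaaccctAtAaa

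Differences of this kind can let reads of 75 bases be placed on 1 copy. By exact match, 97.4% of the 75-base windows of ZNF780A and 98.9% of those of ZNF780B were found once on the chromosome. Reads from the rest would have been discarded by the single-position rule of the mapping. Near matches and other chromosomes were not searched, so these shares do not give the part of reads that the mapping kept.

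The other falls were smaller. ZNF112 had 79 and 97.9 normalized counts at 4 h against 48.1 and 33.5 at 8 h (log2FC -1.10 ± 0.24, adjusted p = 0.00139). ZNF256 had 73.6 and 73.4 at 4 h against 40.9 and 32.3 at 8 h (log2FC -0.99 ± 0.24, adjusted p = 0.00307). Both KRAB members were lower in each 8 h library than in either 4 h library. ZNF101 had 70.9 and 58.9 at 4 h against 26.6 and 41 at 8 h (log2FC -0.96 ± 0.27, adjusted p = 0.0082), and lost its call without replicate 1 of 4 h (-0.83) or replicate 1 of 8 h (-0.66). ZNF765 had 83.5 and 64.4 at 4 h against 46 and 28.6 at 8 h (log2FC -0.96 ± 0.26, adjusted p = 0.00705), and lost its call without replicate 1 of 4 h (-0.78, adjusted p = 0.11). The direction of both held in each fit.

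ZNF260 was the only member without a KRAB domain among the 10 named falls. It had 301.5 and 280.1 normalized counts at 4 h against 144.2 and 178.9 at 8 h, a log2FC of -0.86 ± 0.14 (adjusted p = 0.000113), or 1.81-fold lower, and kept its call in every fit except that with glmTreat, which tests against an absolute log2FC of 1. ZNF559 had 77.2 and 78.9 at 4 h against 41.9 and 44.7 at 8 h (log2FC -0.85 ± 0.23, adjusted p = 0.00611) and shares exons with the readthrough transcript ZNF559-ZNF177, so that reads of these could be split by the counting. ZNF846 had 61 and 62.5 at 4 h against 39.9 and 29.8 at 8 h (log2FC -0.81 ± 0.26, adjusted p = 0.0175). Its call was lost without either replicate of 4 h (-0.84 and -0.80) or replicate 2 of 8 h (-0.63), and with the correction for mean log2-CPM (-0.63, adjusted p = 0.0597).

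**Figure D4:**
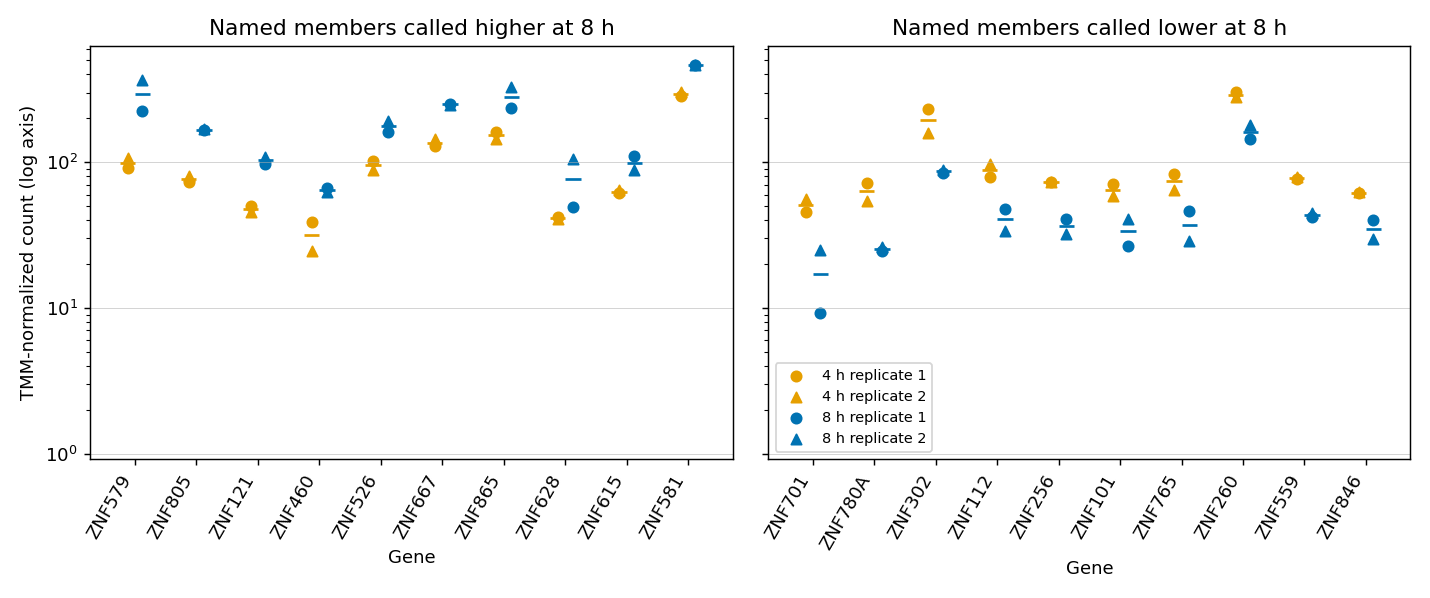
Points give the TMM-normalized count in each library (y axis, log scale) for the 10 named rises at left and the 10 named falls at right, with circles for replicate 1, triangles for replicate 2 and bars for the mean at 4 h (orange) and 8 h (blue). No gene shows overlap between the times, as the rule required, and the replicates of 8 h stand furthest apart in ZNF628 (49.1 and 104.4) and ZNF701 (9.2 and 24.9).

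The member with the lowest log2FC of all, ZNF345, was outside this rule because of its low counts. It had 31.4 and 27.2 normalized counts at 4 h against 3.07 and 13.7 at 8 h, a log2FC of -1.87 ± 0.48 (adjusted p = 0.00395). On the other side, ZNF57 rose by 1.31 ± 0.34 (adjusted p = 0.00487) from 11.7 and 21.8 to 41.9 and 41 normalized counts. Both are named for their size after their values were seen, and the 8 h replicates of ZNF345 differed more than those of ZNF57.

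Members with a known role, chosen by name, mostly did not pass the test. ZNF91, which silences SVA retrotransposons, had 123.8 and 78 normalized counts at 4 h against 74.7 and 94.4 at 8 h (log2FC -0.27 ± 0.23, adjusted p = 0.377). ZNF93, which binds LINE-1 elements, had 28.7 and 22.7 at 4 h against 30.7 and 17.4 at 8 h (log2FC -0.07 ± 0.35, adjusted p = 0.899). The times overlapped in both genes, and only 89% of the 75-base windows of ZNF91 were found once on the chromosome. ZNF274, which brings SETDB1 to the 3' ends of zinc finger genes, had 195.6 and 238.4 at 4 h against 206.6 and 186.4 at 8 h (log2FC -0.14 ± 0.15, adjusted p = 0.48). ZNF420, also called APAK and known as a repressor of p53 activity, had 62.8 and 58.9 at 4 h against 64.4 and 65.8 at 8 h (log2FC 0.10 ± 0.22, adjusted p = 0.759). The times overlapped in ZNF274, whereas both 8 h values of ZNF420 lay just above both of 4 h, with a log2FC smaller than its SE.

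ZNF350, or ZBRK1, a partner of BRCA1 in repression of GADD45A, had 177.7 and 145.1 normalized counts at 4 h against 194.3 and 155.3 at 8 h (log2FC 0.12 ± 0.17, adjusted p = 0.59). ZNF331 had 166.9 and 174.1 at 4 h against 204.5 and 198.8 at 8 h (log2FC 0.24 ± 0.15, adjusted p = 0.193). ZNF473, which takes part in histone pre-mRNA 3' end processing, had 236 and 282.8 at 4 h against 210.7 and 206.3 at 8 h (log2FC -0.31 ± 0.14, adjusted p = 0.0791). The times did not overlap in the last 2, yet the differences missed the threshold. ZNF224, a transcriptional repressor of the aldolase A gene, was the exception, with 75.4 and 69.8 at 4 h against 123.8 and 99.4 at 8 h and a rise of 0.63 ± 0.20 (adjusted p = 0.0177). Its call was lost without replicate 1 of 4 h (0.67), replicate 2 of 4 h (0.57) or replicate 1 of 8 h (0.45), and its exons overlap ZNF225-AS1 on the opposite strand.

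Position along the chromosome was examined by joining listed members less than 1 Mb apart into clusters. The largest, at chr19:55987984-58992597 near the long-arm telomere, held 59 listed and 55 retained members. Of these, 7 rose (12.7%, against 19.9% of all genes) and 6 fell (10.9%), with a median log2FC of 0.02 that was -0.04 without replicate 2 of 8 h. ZNF579, ZNF805, ZNF460, ZNF667, ZNF865, ZNF628 and ZNF581 are its 7 rises, and 42 of its 55 members carry KRAB. The shares of falls in the clusters are read beside the 18.8% of all genes that were lower. In the cluster at chr19:36673178-38307940, 0 of 24 retained members rose and 4 fell (16.7%), with a median of -0.40 that was -0.19 without replicate 2 of 8 h. At chr19:52074536-54083523, 1 of 31 rose and 4 fell (12.9%), and the median of -0.21 was -0.06 after the correction for mean log2-CPM. At chr19:11594242-12750912, 1 of 19 rose and 4 fell (21.1%), and after the same correction none fell and the median of -0.15 became -0.01. The cluster at chr19:44029649-45579736 had 1 rise and 3 falls among 22 (13.6%), with a median of -0.11 that was 0.03 after this correction. At chr19:7069714-9903856, 3 of 13 rose (23.1%, against 19.9% of all genes) and 2 fell, with a median of -0.03.

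The pericentromeric cluster at chr19:19779605-24312770, which holds ZNF91 and ZNF93, had the largest number of members removed for low counts, with 22 of 35 retained. None of these 22 rose (against 19.9% of all genes) and 3 fell (ZNF101, ZNF14 and ZNF85), which is 13.6%, against 18.8% of all genes. Their median log2FC was -0.19. Without replicate 2 of 8 h the median was 0.03, so that its sign depended on that library, the only one left out for this value. Among its members without any count were ZNF98, ZNF99 and ZNF208. ZNF98 had only 53.2% of its 75-base windows found once, so that reads from the others would be discarded, whereas ZNF726 had no count either, with 99.6% of its windows found once.

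The machinery through which KRAB domains act was read from a list of 25 genes for TRIM28, SETDB1, HP1, NuRD and the related silencing complexes, of which 24 were retained. At an adjusted p below 0.05, 3 were higher (12.5%, against 19.9% of all genes) and 12 lower (50%, against 18.8%), with a median log2FC of -0.18. The list was chosen with earlier results of these data known and was not matched for expression, so these shares only describe it. TRIM28 had 3643 and 3665 normalized counts at 4 h against 3932 and 4275 at 8 h (log2FC 0.17 ± 0.07, adjusted p = 0.0792), and SETDB1 had 269 and 277 at 4 h against 320 and 334 at 8 h (log2FC 0.26 ± 0.12, adjusted p = 0.0929). Both were higher in each 8 h library but missed the threshold. UHRF1, which couples DNA methylation to replication, was the only gene of the list past both thresholds, at 171 and 198 normalized counts at 4 h against 61.4 and 60.9 at 8 h (log2FC -1.59 ± 0.19, adjusted p = 2.23e-06). DNMT1, the maintenance DNA methyltransferase, fell by 0.79 and CBX5, which encodes HP1 alpha, by 0.72, and CBX1 (-0.33) and CBX3 (-0.48) were also lower. SUMO2 (0.73), TRIM33 (0.44) and CHD3 (0.24) were the 3 that rose, and without replicate 2 of 4 h no gene of the list was called higher by edgeR (1 at an unadjusted p below 0.05). In bulk RNA, fewer cells that express a gene and less RNA per cell cannot be told apart.

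Across the fits made at an adjusted p below 0.05, the number of members called ran from 10 to 39 lower and from 11 to 27 higher. The lowest count of falls, 10, came from DESeq2, which called 13 higher, and these 10 and 13 were all among the 30 and 18. Limma-Voom called 17 higher and 26 lower, all of them also called by edgeR.

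**Figure D5:**
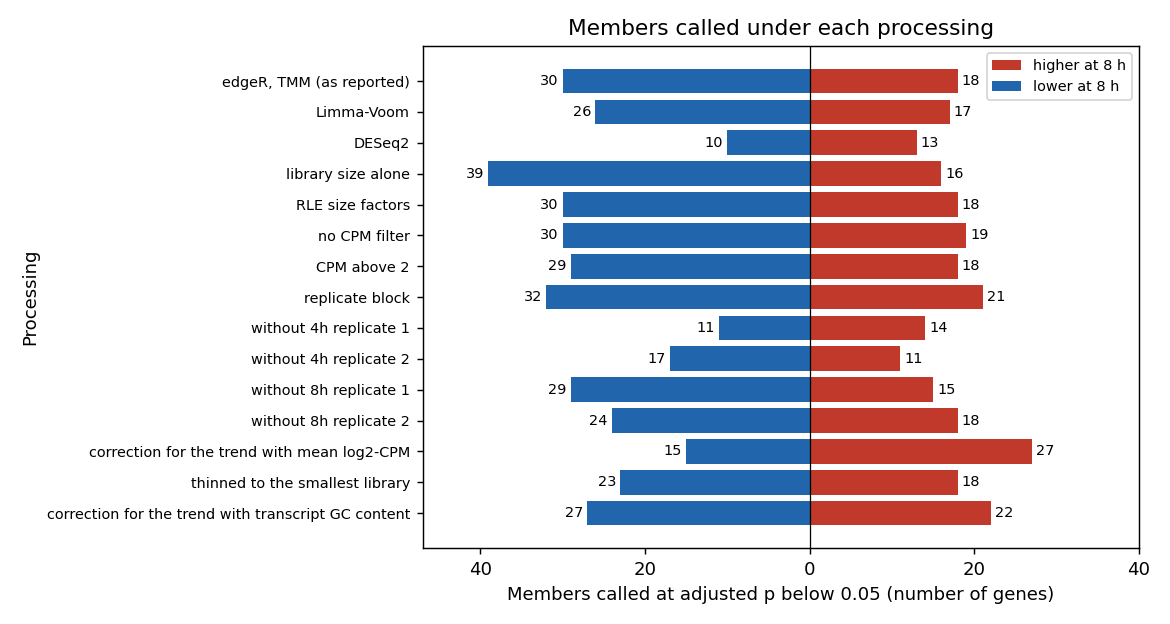
Bars give the number of members called lower (blue, to the left) and higher (red, to the right) at 8 h at an adjusted p below 0.05, by test, scaling, filter or library left out. Falls outnumbered rises in edgeR with TMM (30 and 18), and rises outnumbered falls with DESeq2 (13 and 10), without replicate 1 of 4 h (14 and 11) and after the correction for mean log2-CPM (27 and 15).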

How the data were processed

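Gene expression was measured by RNA-Seq in 4 libraries of RPE-1 cells, grouped by the times and replicate numbers in the sample labels. The authors mapped single reads to hg19 with Bowtie 1.2.0, discarded reads that fit more than 1 place, and deposited raw counts by NCBI Gene identifier, without normalization, filtering or pooling. The annotation, the counting tool and its use of strand are not given in the sources used here. Reads that span a junction between exons, or that fit near-identical copies, are lost in such mapping.

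The RefSeq gene table gave symbols for 23308 of 23459 identifiers, and hg19 positions came from a GENCODE annotation on GRCh37. The filter was a CPM above 1 in 2 or more libraries. After TMM normalization, 8 h and 4 h were compared with edgeR 4.0.16 (quasi-likelihood test, R 4.3.3) over all retained genes, with Benjamini-Hochberg adjustment and time as the only term. The SE of a log2FC was derived from its F statistic. Thresholds were an adjusted p of 0.05 and an absolute log2FC of 1. Alternatives were Limma-Voom (limma 3.58.1), DESeq2 1.42.0, glmTreat, library size alone, RLE size factors, other CPM filters, libraries thinned to the smallest, offsets that remove each library's trend with mean log2-CPM, a replicate block, and fits on 3 of the 4 libraries. Offsets for the trend with transcript GC content were added after the data were seen. The edgeR, Limma-Voom, DESeq2 and glmTreat tests were also run on simulated counts drawn from the means and dispersion of these data. The replicate block, library size alone and both kinds of offset were run on them too. RLE size factors, other CPM filters, thinning and fits on 3 libraries were not.

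Named genes were the 10 largest rises and 10 largest falls among members called by edgeR, without overlap between times and with a mean of at least 50 normalized counts at the higher time, the 3 members with the highest CPM per kilobase, 9 fixed names, and TRIM28, SETDB1 and genes past both thresholds from the co-repressor list. Members and lists were chosen with earlier results of these data known. The comparison with genes of like expression was made by quintiles of mean log2-CPM. Fingers and KRAB A-boxes were counted in coding sequences translated from hg19. That of ZNF274 could not be read in frame and has no finger count. Intervals and p-values cover the spread between these replicates only.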

Additional observations from a re-analysis of the deposited data

How the results depend on the processing

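Of the named members' values, 391 results under an alternative kept their direction and side of the threshold, 27 lost their call, 2 gained one, 13 moved and 1 reversed. The reversed value was that of ZNF580, at -0.27 with the correction for transcript GC content. With DESeq2, 10 members were lower, 6 of them past both thresholds, and 1 gene of the co-repressor list was higher, and the calls of ZNF101, ZNF224, ZNF559, ZNF615, ZNF628 and ZNF846 were lost, that of ZNF628 also with Limma-Voom and after thinning. The correction for mean log2-CPM gave a median log2FC of 0.05 and 15 members lower, with 8 higher and 7 lower past both thresholds. Library size alone gave a median of -0.19, with 3 higher past both thresholds. Tested with glmTreat against an absolute log2FC of 1, 0 members passed in either direction (1 higher and 3 lower at an unadjusted p below 0.05). With the GC correction, 6 genes of the co-repressor list were higher. Leaving out each library in turn, the members called ranged from 11 to 18 higher and from 11 to 29 lower, those past both thresholds from 6 to 16 lower, the median log2FC from -0.18 to -0.06, and the co-repressor genes called higher from 0 to 4. The cause of these shifts was not tested. Replicate numbers did not pair the libraries (correlation of deviations 0.05), and the replicate block called 21 members higher and 32 lower, which included all 18 and 30. The precision of single members was limited, with a median SE of 0.23, against 0.13 over all genes.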
